A study of Mus musculus with 14 samples.

Results

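The genes described here were 44 interferon-stimulated genes, chosen by gene name without a threshold on any measured value. Where a library had no row under the gene name, the locus at its position was read. They comprised 13 GTPase genes (Gbp2 to Gbp9, Irgm1, Irgm2, Igtp, Iigp1 and Ifi47), 5 Irf and Stat genes (Irf1, Irf2, Irf7, Irf9 and Stat2) and 26 antiviral genes. The mouse annotation holds 55536 genes, of which 15146 were tested in the first experiment and 13965 in the second. These had a matching row or locus in every library of the experiment and a mean of at least 0.1 FPKM. Without the requirement on the mean, 23294 and 18653 genes could be tested. RNA-Seq was run on CD4+ T cells from C57BL/6 mice in 2 experiments, each with its own WT controls, and mutant and WT cells were compared inside each experiment to ask how loss of the histone deacetylases HDAC1 and HDAC2 alters transcription in activated T cells.

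The first experiment set 4 samples of HDAC1cKO-HDAC2HET cells (Hdac1 fl/fl, Hdac2 fl/+, Cd4-Cre) against 4 WT samples after 3 days of activation with anti-CD3 and anti-CD28 under Th0 conditions, that is, without polarizing cytokines. In the second, 3 samples of HDAC1cKO cells (Hdac1 fl/fl, Cd4-Cre) were set against 3 WT samples activated in the same way and then, by the description in the study, restimulated with anti-CD3 for 12 h. By the study's methods, cultures received recombinant human IL-2. The starting cells described there were naive CD4+ T cells sorted from spleen and lymph nodes (the labels name the spleen). The mice were of both sexes, with littermates as controls. For the culture of the second experiment the study refers to an earlier report. Cd4-Cre acts from the CD4+CD8+ stage of thymic development, so the alleles were deleted in both CD4+ and CD8+ T cells before activation, and the cells measured had developed without the deleted genes. Genotype and restimulation changed together between the experiments. Anything else that differed between the experiments, such as the share of libraries expressing the female transcript Xist, changed as well. These cannot be told apart. For the first experiment the study describes independent cell batches prepared on a single day, but the labels do not tie the replicates of either experiment to animals, so the p-values describe the spread between these samples.

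Interferons signal through receptors that activate JAK kinases and STAT transcription factors. Type I interferons such as IFN-β act mainly through a complex with STAT2 and IRF9 that binds the interferon-stimulated response element (ISRE), while IFN-γ, the product of Ifng and the hallmark cytokine of Th1 cells, acts mainly through the gamma-activated sequence (GAS). Guanylate-binding proteins and immunity-related GTPases, which attack the vacuoles of intracellular pathogens, are strongly induced by IFN-γ, and many of the classical antiviral genes respond most strongly to type I interferon.

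Levels are given in FPKM, a read density corrected for transcript length and library size. The depth of a library is not listed in the files and was only estimated, at 25000000 to 59000000 fragments in the first experiment and 28600000 to 49400000 in the second. The targeted genes matched the labels: Hdac1 ranged from 6.65 to 10.7 FPKM in HDAC1cKO-HDAC2HET and from 8.52 to 12.1 FPKM in HDAC1cKO cells, and all WT values lay above 72 FPKM. Hdac2 was at 58.2 to 60.3 FPKM in WT and 34.0 to 37.0 FPKM in HDAC1cKO-HDAC2HET cells, and at 62.4 to 78.2 and 74.8 to 88.1 FPKM in the second experiment. The summed level of 6 T-cell genes (Cd3e, Cd3g, Cd4, Cd5, Cd28 and Il2ra) was 1385 to 1460 FPKM in WT and 1032 to 1064 FPKM in HDAC1cKO-HDAC2HET cells. It was 1186 to 1410 and 1219 to 1311 FPKM in the second experiment. Cd4 alone was at 208 to 218 FPKM in WT and 160 to 168 FPKM in HDAC1cKO-HDAC2HET cells. In the second experiment Cd4 was at 170 to 242 FPKM in WT and 202 to 232 FPKM in HDAC1cKO cells. The CD8+ T-cell markers Cd8a and Cd8b1 summed to 3.28 to 5.96 FPKM in WT and 11.7 to 15.2 FPKM in HDAC1cKO-HDAC2HET cells, and to 3.80 to 4.86 and 6.52 to 7.30 FPKM in the second experiment. Nearly all of this sum was Cd8b1. Cd8a alone was at 0.039 to 0.0858 FPKM in WT and 0.315 to 0.574 FPKM in HDAC1cKO-HDAC2HET cells. In the second experiment Cd8a was at 0.0082 to 0.12 FPKM in WT and 0.252 to 0.299 FPKM in HDAC1cKO cells. The part of these marker levels in the results was not tested. B-cell markers summed to at most 1.12 FPKM, and Siglech of plasmacytoid dendritic cells was listed at 0 or at most 0.0116 FPKM. Among 5 myeloid markers, Lyz2, Itgam and Adgre1 did not exceed 0.0148, 0.333 and 0.354 FPKM, and Csf1r, in a locus joined with Hmgxb3, was listed at 0 throughout. The fifth, Cd68, was at 2.29 to 3.12 FPKM in 3 WT libraries with a value and 1.86 to 4.496 FPKM in HDAC1cKO-HDAC2HET cells, and at 4.53 to 5.39 and 3.88 to 5.60 FPKM in the second experiment, with overlapping groups. In bulk samples of this kind, fewer cells of a type and less RNA per cell cannot be told apart.

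Several libraries stood apart within their group, and this touched the antiviral genes most. Among the first 4 WT libraries, replicate 2 was the lowest for 25 of 26 antiviral genes and the highest for 6 of 7 tested GTPases. In the second, WT replicate 1 was the highest of its group for 26 of 26 antiviral genes, and WT replicate 2 was the lowest for 6 of 6 tested GTPases and for 19 of 26 antiviral genes. Xist, expressed in female cells, was at 42.9 and 33.2 FPKM in WT replicates 1 and 3 of the second experiment and at most 0.0435 FPKM in its other 4 libraries, so WT replicate 2 was the only WT library that shared this state with the 3 HDAC1cKO libraries. All 8 libraries of the first experiment expressed Xist.

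Of the 44 genes, 36 could be tested in the first experiment, and they moved in both directions. Of these, 17 (47.2%) passed the test of limma on the log2(FPKM + 0.1) scale at a Benjamini-Hochberg adjusted p of at most 0.05, against 51.8% of all 15146 genes. A higher level in HDAC1cKO-HDAC2HET cells was called for 10 of the 36 (24.2% of all genes) and a lower level for 7 (27.6% of all genes). Across all genes the calls divided into 3665 higher and 4185 lower. With libraries scaled to a common median they divided into 4458 and 3270, and the members into 12 higher and 6 lower. With a fold change of at least 2 required as well, 10 members (27.8%) were called, against 11.1% of all genes, with 5 higher (5.59% of all genes) and 5 lower (5.55%). The 5 higher genes were Gbp7, Irgm1, Iigp1, Oasl1 and Bst2, and the 5 lower genes were Isg20, Ifit3, Ifih1, Rsad2 and Rtp4. The median log2 fold change was 0.12 over the 36 members and -0.04 over all genes. The groups did not overlap for 16 members (10 higher and 6 lower), while 50.4% of all genes did not overlap (23.4% higher and 27% lower). The other 8 members (Gbp4, Gbp6, Gbp8, Gbp9, Igtp, Ifi47, Irf7 and Irf9) had no value of their own in every library, mostly because the authors' assembly joined neighbouring genes into a single locus.

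**Figure D1:**
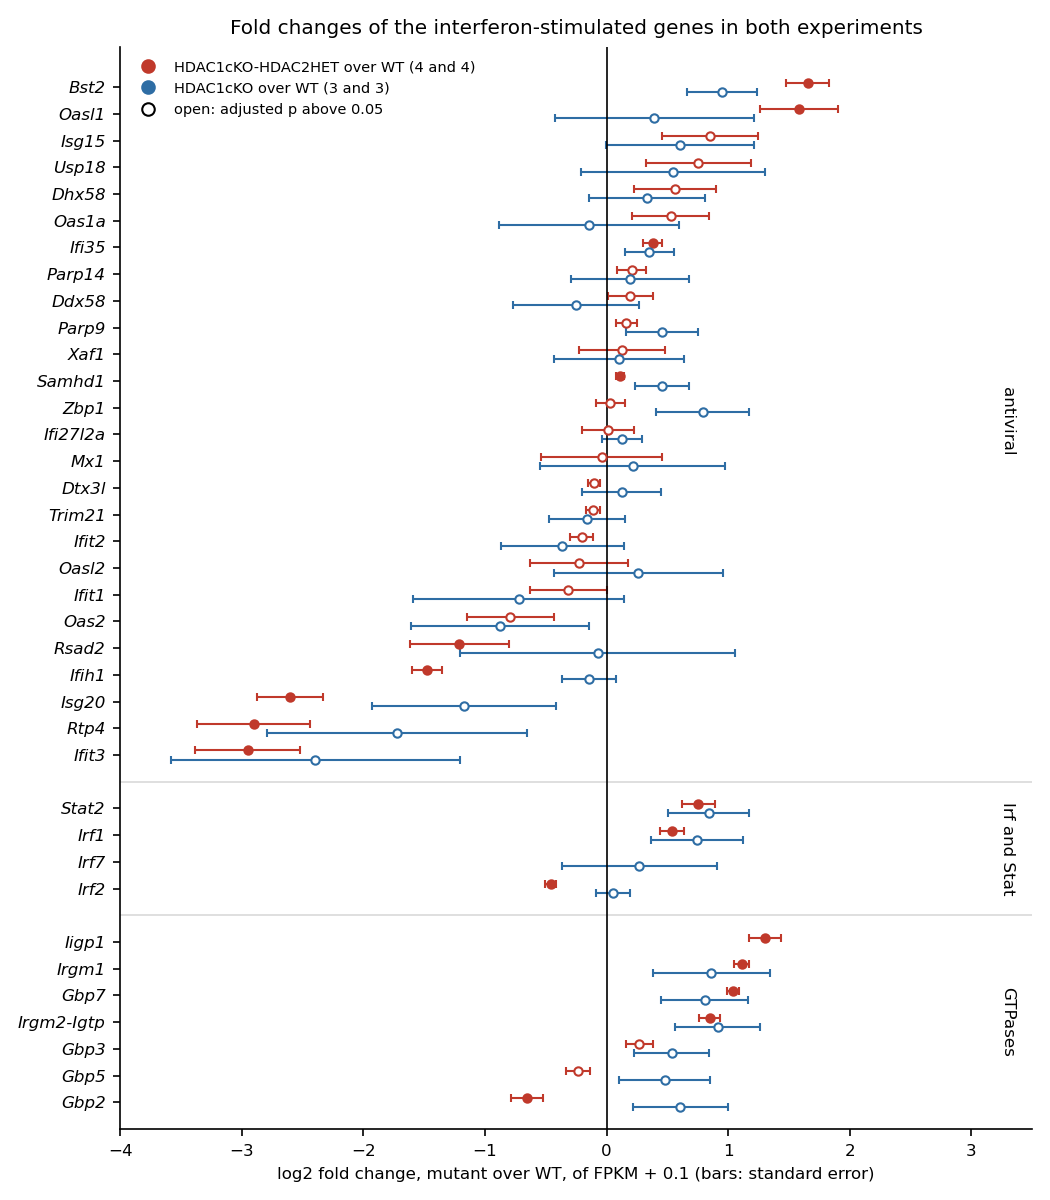
Log2 fold change of each tested interferon-stimulated gene, mutant against WT, in the first experiment (HDAC1cKO-HDAC2HET, 4 against 4 samples) and the second (HDAC1cKO, 3 against 3), on the log2(FPKM + 0.1) scale, with points as estimates, bars as standard errors and genes arranged by group. In the first experiment the GTPases lie mostly above 0 and the antiviral genes spread from -2.95 (Ifit3) to 1.65 (Bst2). The bars of the second experiment are wider.

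Of the 13 GTPase genes, 7 could be tested in HDAC1cKO-HDAC2HET cells, and more of these were called higher than lower. Of the 7 tested, 4 rose (Gbp7, Irgm1, the joint Irgm2 and Igtp locus, and Iigp1), 1 fell (Gbp2) and 2 did not pass the test (Gbp3 and Gbp5). The GTPases were called in 71.4% of cases, against 51.8% of all genes (24.2% higher and 27.6% lower). Their median log2 fold change was 0.85.

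The sequences just before the transcription starts of 5 of these genes are shown because genes that moved apart carried the same short motifs. Each is the strand of the gene, 5′ to 3′, from the RefSeq annotation of GRCm38.p6 (the coordinates of mm10), and covers 160 bases up to the start, except that Gbp2 is shown for 129 bases because another annotated transcript begins inside its window. Capitals mark an ISRE (GAAANNGAAA, or TTTCNNTTTC read on the other strand) or a GAS (TTCNNNGAA).
Irgm1 (chr11:48871421-48871580, minus strand): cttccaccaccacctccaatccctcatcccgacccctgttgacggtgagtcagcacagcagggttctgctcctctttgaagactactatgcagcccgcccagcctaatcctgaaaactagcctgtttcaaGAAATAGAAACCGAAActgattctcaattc
Irgm2 (chr11:58214817-58214976, plus strand): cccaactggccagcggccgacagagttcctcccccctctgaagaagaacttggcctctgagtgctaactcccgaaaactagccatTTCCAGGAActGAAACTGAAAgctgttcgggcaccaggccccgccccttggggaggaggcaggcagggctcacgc
Igtp (chr11:58199396-58199555, plus strand): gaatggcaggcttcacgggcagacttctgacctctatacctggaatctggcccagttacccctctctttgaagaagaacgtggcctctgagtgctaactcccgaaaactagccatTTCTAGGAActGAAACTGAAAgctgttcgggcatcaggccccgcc
Gbp7 (chr3:142530176-142530335, plus strand): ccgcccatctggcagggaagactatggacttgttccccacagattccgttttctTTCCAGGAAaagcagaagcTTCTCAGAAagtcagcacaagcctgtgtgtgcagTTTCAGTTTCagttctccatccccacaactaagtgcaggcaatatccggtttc
Gbp2 (chr3:142620503-142620631, plus strand): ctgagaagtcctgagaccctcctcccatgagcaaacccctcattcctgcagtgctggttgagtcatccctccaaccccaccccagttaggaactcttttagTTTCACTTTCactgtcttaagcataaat
Irgm2 and Igtp share a GAS followed closely by an ISRE, and both Gbp7, which rose, and Gbp2, which fell, hold an ISRE. Gbp7 also holds GAS matches, while Gbp2 and Irgm1 hold none in these stretches. In the annotation used to match loci, the Irgm1 and Irgm2 stretches lie inside the spans of these genes.

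Irgm1 (chromosome 11, 48861968 to 48871683) encodes a regulatory immunity-related GTPase that keeps the effector GTPases off the cell's own membranes. Its level was 73.2, 69.4, 65.7 and 61.3 FPKM in WT and 138, 143, 151 and 149 FPKM in HDAC1cKO-HDAC2HET cells. The locus read here, 48865245 to 48871420, was shorter than the one read in the second experiment. Every mutant library lay above every WT library, and the mean rose 2.16-fold from 67.4 ± 5.08 to 145 ± 6.01 FPKM (SD, n = 4; log2 fold change 1.11, SE 0.06, adjusted p = 5.21e-06).

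Irgm2 and Igtp, further regulatory GTPases of this family, lie side by side on chromosome 11 (58199556 to 58222782) and were reported as a single locus, so their shares cannot be told apart. The locus was at 223, 272, 205 and 222 FPKM in WT and at 448, 395, 396 and 415 FPKM in HDAC1cKO-HDAC2HET cells, without overlap. The mean rose 1.79-fold from 231 ± 28.9 to 413 ± 25.0 FPKM (SD, n = 4; log2 fold change 0.85, SE 0.09, adjusted p = 0.000128). The locus had the third-highest WT mean among the members.

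Iigp1 (chromosome 18) encodes an effector GTPase that loads onto pathogen vacuoles. It had the largest log2 fold change of the tested GTPases. Its level was 73.5, 80.5, 54.0 and 66.7 FPKM in WT and 196, 155, 155 and 169 FPKM in HDAC1cKO-HDAC2HET cells, and the groups did not overlap. The mean rose 2.46-fold from 68.7 ± 11.3 to 169 ± 19.2 FPKM (SD, n = 4; log2 fold change 1.30, SE 0.13, adjusted p = 0.000107).

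Gbp5, Gbp7, Gbp3 and Gbp2, which encode guanylate-binding proteins, lie in this order within chromosome 3, 142493978 to 142638008, and did not move together. Gbp7 (142530342 to 142550149) was at 19.2, 19.6, 18.1 and 19.0 FPKM in WT and at 41.8, 40.7, 38.2 and 35.9 FPKM in HDAC1cKO-HDAC2HET cells. Its mean rose 2.07-fold from 18.9 ± 0.609 to 39.1 ± 2.65 FPKM (SD, n = 4; log2 fold change 1.04, SE 0.05, adjusted p = 4.49e-06). Gbp2 (142620602 to 142638008), the most abundant GTPase of the set in WT cells, went the other way. It was at 554, 775, 560.1 and 618 FPKM in WT and at 472, 350.0, 379 and 388 FPKM in HDAC1cKO-HDAC2HET cells. Its groups did not overlap, and the mean fell from 627 ± 103 to 397 ± 52.5 FPKM (SD, n = 4; log2 fold change -0.65, SE 0.13, adjusted p = 0.00377). With both experiments fitted together the Gbp2 call was lost (adjusted p = 0.06). Gbp3 (17.3 and 20.9 FPKM in WT and mutant, adjusted p = 0.0797) and Gbp5 (121 and 103 FPKM, adjusted p = 0.09) did not pass the test. Gbp3 passed it without WT replicate 2, and Gbp5 without HDAC1cKO-HDAC2HET replicate 1.

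The remaining Gbp genes sit in a second cluster on chromosome 5 and were read only as joint loci. A locus of Gbp4, Gbp8 and Gbp9 (105014153 to 105139586) was resolved in 3 libraries of each group and was at 62.1 ± 4.43 FPKM in WT and 63.0 ± 1.62 FPKM in HDAC1cKO-HDAC2HET cells (SD, n = 3; 2-sided exact permutation test, p = 0.8). The neighbouring locus of Gbp6 and Gbp10 (105214907 to 105293696) was at 36.0, 35.0 and 31.8 FPKM in the same WT libraries and at 50.9, 51.4 and 50.1 FPKM in the mutant libraries. Its mean was 34.2 ± 2.15 FPKM in WT and 50.8 ± 0.671 FPKM in the mutant (SD, n = 3), with no overlap, and the exact permutation p of 0.1 is the smallest this design allows. Ifi47, another immunity-related GTPase, was joined with Tgtp1, Tgtp2 and further genes on chromosome 11 (48978889 to 49135387), at 201 ± 13.5 FPKM in WT and 211 ± 7.41 FPKM in the mutant (SD, n = 4; exact permutation test, p = 0.2).

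Among the Irf and Stat genes, all 3 that could be tested were called (51.8% of all genes were), with Irf1 and Stat2 higher and Irf2 lower. Irf1 (chromosome 11, 53770014 to 53778374) encodes a transcriptional activator that IFN-γ induces. It was at 111, 134, 96.3 and 117 FPKM in WT and at 181, 159, 161 and 161 FPKM in HDAC1cKO-HDAC2HET cells. The groups did not overlap, and the mean rose 1.44-fold from 115 ± 15.8 to 165 ± 10.5 FPKM (SD, n = 4; log2 fold change 0.54, SE 0.10, adjusted p = 0.00239). With both experiments fitted together the Irf1 call was lost (adjusted p = 0.0939).

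Stat2 (chromosome 10, 128270559 to 128292849), the STAT protein particular to the type I interferon complex, was at 24.9, 15.6, 22.8 and 18.5 FPKM in WT and at 33.8, 34.9, 34.6 and 32.6 FPKM in HDAC1cKO-HDAC2HET cells. The mutant libraries were close to each other and all above WT. The mean rose 1.66-fold from 20.4 ± 4.19 to 34.0 ± 1.01 FPKM (SD, n = 4; log2 fold change 0.75, SE 0.14, adjusted p = 0.00231).

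Irf2 (chromosome 8, 46739732 to 46847458) encodes a factor that competes with IRF1 for the same elements and mostly represses. It was at 35.8, 37.9, 37.5 and 37.5 FPKM in WT and at 28.1, 25.6, 26.01 and 28.3 FPKM in HDAC1cKO-HDAC2HET cells. The replicates were tight and the groups far from overlapping, and the mutant mean was 0.727 of the WT mean (37.2 ± 0.921 against 27.0 ± 1.42 FPKM, SD, n = 4; log2 fold change -0.46, SE 0.04, adjusted p = 6.42e-05).

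Irf7, the factor that amplifies type I interferon production, was not tested because it was listed at 0 in WT replicate 2. The other WT libraries had 20.1, 25.4 and 12.4 FPKM and the HDAC1cKO-HDAC2HET libraries 8.14, 10.1, 10.8 and 11.8 FPKM. Irf9, the DNA-binding partner of STAT2, was joined with Rnf31 on chromosome 14 (55591708 to 55610030). That locus was at 46.9 ± 4.33 FPKM in WT and 44.5 ± 0.663 FPKM in the mutant (SD, n = 4; exact permutation test, p = 0.371).

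**Figure D2:**
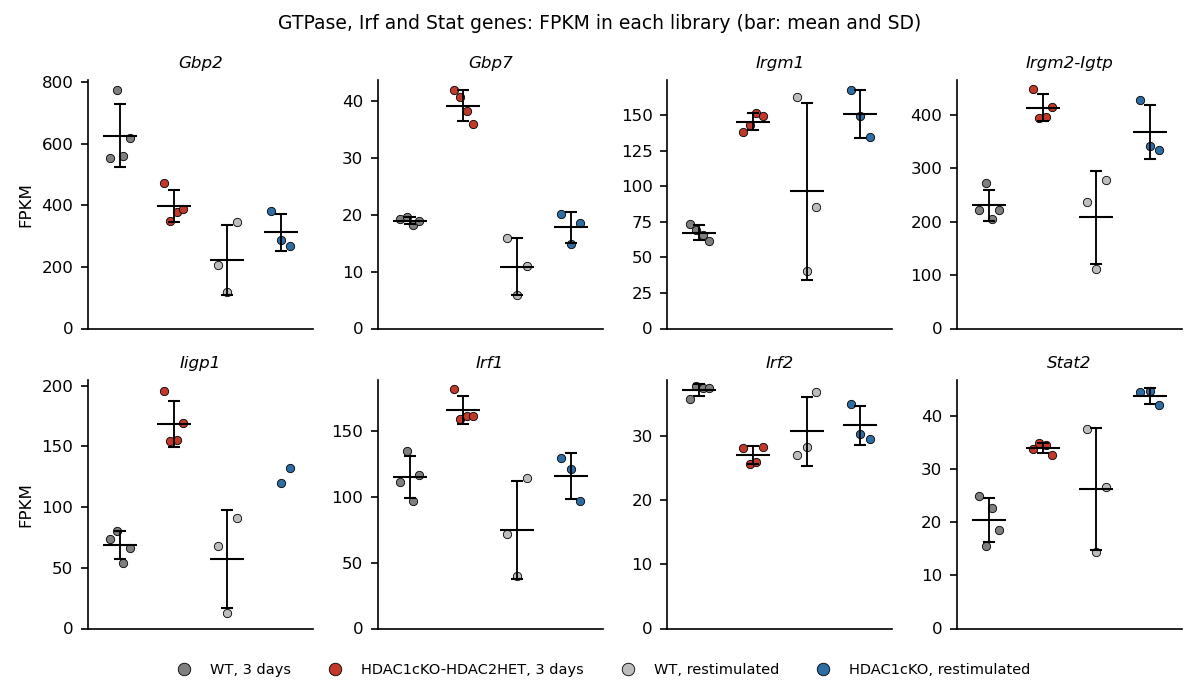
FPKM in every library for 5 GTPase loci (Gbp2, Gbp7, Irgm1, Irgm2 with Igtp, Iigp1) and for Irf1, Irf2 and Stat2, with a point per library and mean and SD as line and bar. Bars that would reach below 0 end at the axis. In the first experiment all 8 loci separate mutant from WT, with Gbp2 and Irf2 lower. In the second the 3 WT libraries spread widely, and only Irgm2 with Igtp and Stat2 separate among those with a value in every library.

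The 26 antiviral genes divided between directions, with 4 higher, 5 lower and 17 not called in HDAC1cKO-HDAC2HET cells. The share called was 34.6%, below the 51.8% of all genes (24.2% higher and 27.6% lower). Their median log2 fold change was 0.02. All 5 genes that fell did so by more than 2-fold. Of the 4 that rose, Bst2 and Oasl1 passed that size while Ifi35 and Samhd1 did not. With that size required, 26.9% were called, against 11.1% of all genes (5.59% higher and 5.55% lower).

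Upstream sequences of 4 antiviral genes that moved in opposite directions are given for comparison, in the same form as above. In Bst2 a GAS and an ISRE overlap in a single run of capitals, and for Isg20 the first of 3 annotated starts was used.
Bst2 (chr8:71537473-71537632, minus strand): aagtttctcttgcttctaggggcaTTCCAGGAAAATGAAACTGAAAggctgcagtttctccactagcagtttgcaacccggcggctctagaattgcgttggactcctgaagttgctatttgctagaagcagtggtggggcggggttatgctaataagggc
Ifit3 (chr19:34583369-34583528, plus strand): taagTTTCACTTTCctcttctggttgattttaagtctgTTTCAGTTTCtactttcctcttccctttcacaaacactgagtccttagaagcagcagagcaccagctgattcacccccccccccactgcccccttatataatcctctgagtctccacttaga
Rsad2 (chr12:26456453-26456612, minus strand): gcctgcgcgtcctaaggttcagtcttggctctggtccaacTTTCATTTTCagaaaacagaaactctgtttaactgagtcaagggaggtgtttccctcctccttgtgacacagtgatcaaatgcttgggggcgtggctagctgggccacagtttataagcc
Isg20 (chr7:78913264-78913423, plus strand): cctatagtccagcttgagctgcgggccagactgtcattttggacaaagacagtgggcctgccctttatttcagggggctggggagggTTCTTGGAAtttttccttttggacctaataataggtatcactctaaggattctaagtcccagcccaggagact
Bst2, which rose, and Ifit3 and Rsad2, which fell, all hold at least 1 ISRE, and Isg20 holds a GAS but no ISRE in this stretch.

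Counted over the 250 bases before each start, 30 of the 44 members had a RefSeq window. An ISRE was found for 15 of the 30, against 3.46% of 27025 genes, and a GAS for 11, against 8.13%. Among members with a window, an ISRE was found for 5 of 9 called higher, 4 of 6 called lower and 5 of 11 not called. A GAS was found for 5 of 9, 2 of 6 and 3 of 11. The ISRE was thus present upstream of genes of every kind of call. A match to these letters is a description of the sequence and not a site of binding.

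Isg20 (chromosome 7, 78913424 to 78920396), an exonuclease that degrades viral RNA, fell strongly. It was at 50.8, 28.6, 67.4 and 36.3 FPKM in WT and at 5.48, 8.59, 7.98 and 6.64 FPKM in HDAC1cKO-HDAC2HET cells. The lowest WT library lay well above the highest mutant library, and the WT mean was 6.38 times the mutant mean (45.8 ± 17.1 against 7.17 ± 1.39 FPKM, SD, n = 4; log2 fold change -2.60, SE 0.27, adjusted p = 0.000131).

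Ifit3 (chromosome 19, 34583531 to 34588731), a member of the IFIT family of proteins that bind viral RNA, had the largest log2 decrease of the set at a low level. It was at 4.11, 1.56, 4.44 and 2.75 FPKM in WT and at 0.311, 0.409, 0.102 and 0.496 FPKM in HDAC1cKO-HDAC2HET cells. The mean was 9.76 times higher in WT (3.22 ± 1.32 against 0.329 ± 0.169 FPKM, SD, n = 4; log2 fold change -2.95, SE 0.43, adjusted p = 0.000723). Ifit3 has a near-identical neighbour, Ifit3b, and how reads were split between them is not given in the sources used here. Ifit3b also fell, from 0.688 to 0.0823 FPKM. Ifit2 and Ifit1, which flank the pair on chromosome 19, were not called, although Ifit2 passed the test without WT replicate 2.

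Rtp4 (chromosome 16), a receptor-transporting protein that restricts RNA viruses, was at 7.08, 2.71, 9.06 and 5.72 FPKM in WT and at 0.447, 1.46, 0.417 and 0.679 FPKM in HDAC1cKO-HDAC2HET cells. The groups did not overlap, and the WT mean was 8.18 times the mutant mean (6.14 ± 2.67 against 0.751 ± 0.486 FPKM, SD, n = 4; log2 fold change -2.90, SE 0.46, adjusted p = 0.00117). In this experiment the locus (23520210 to 23614222) also spanned Masp1.

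Ifih1 (chromosome 2, 62595798 to 62646255) encodes MDA5, a cytosolic sensor of long double-stranded RNA, and was the most precisely measured decrease among the antiviral genes. It was at 60.2, 51.0, 62.4 and 51.6 FPKM in WT and at 18.2, 18.6, 25.5 and 18.9 FPKM in HDAC1cKO-HDAC2HET cells. All mutant libraries lay below all WT libraries, and the WT mean was 2.77 times the mutant mean (56.3 ± 5.83 against 20.3 ± 3.49 FPKM, SD, n = 4; log2 fold change -1.48, SE 0.12, adjusted p = 4.1e-05).

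Rsad2 (chromosome 12, 26442746 to 26456452) encodes viperin, an enzyme that makes a chain-terminating nucleotide. It was at 1.32, 0.454, 1.25 and 0.779 FPKM in WT and at 0.134, 0.319, 0.408 and 0.554 FPKM in HDAC1cKO-HDAC2HET cells, and the groups overlapped. The WT mean was 2.69 times the mutant mean (0.951 ± 0.41 against 0.354 ± 0.176 FPKM, SD, n = 4; log2 fold change -1.21, SE 0.41, adjusted p = 0.0381). The exact permutation test gave p = 0.0571. The call was lost without any of WT replicates 1, 3 and 4 or HDAC1cKO-HDAC2HET replicates 1, 2 and 3, with adjusted p from 0.0562 to 0.0945.

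Bst2 (chromosome 8, 71534255 to 71537456) encodes tetherin, which holds budding virions at the cell surface, and showed the largest log2 increase of all tested members. It was at 115, 74.5, 95.6 and 78.6 FPKM in WT and at 211, 321, 309.6 and 302 FPKM in HDAC1cKO-HDAC2HET cells. The groups were far apart, and the mean rose 3.15-fold from 90.9 ± 18.4 to 286 ± 50.3 FPKM (SD, n = 4; log2 fold change 1.65, SE 0.18, adjusted p = 0.000149).

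Oasl1 (chromosome 5, 114923240 to 114937915), an OAS-like protein known to restrain translation of Irf7, was low but rose. It was at 1.02, 0.432, 1.13 and 0.562 FPKM in WT and at 1.59, 2.79, 2.47 and 3.05 FPKM in HDAC1cKO-HDAC2HET cells, without overlap. The mean rose 3.14-fold from 0.787 ± 0.342 to 2.48 ± 0.637 FPKM (SD, n = 4; log2 fold change 1.59, SE 0.32, adjusted p = 0.00399). Its neighbour Oasl2 was not called.

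Ifi35 and Samhd1 rose by small amounts. Ifi35 (chromosome 11, 101448407 to 101458698), a protein that modulates innate signalling, was at 46.9, 40.2, 44.8 and 41.7 FPKM in WT and at 48.6, 60.5, 59.1 and 58.2 FPKM in HDAC1cKO-HDAC2HET cells (log2 fold change 0.38, SE 0.08, adjusted p = 0.00494). Samhd1 (chromosome 2, 157097533 to 157135265), which depletes the nucleotides that viruses need, was at 219.6, 230.5, 231 and 215 FPKM in WT and at 244, 247, 240.4 and 234 FPKM in HDAC1cKO-HDAC2HET cells. The groups of both genes did not overlap. The Samhd1 ratio was 1.08 (log2 fold change 0.11, SE 0.03, adjusted p = 0.0275), and the call was lost without any of WT replicates 1 and 4 or HDAC1cKO-HDAC2HET replicates 1, 2 and 3, with adjusted p from 0.0508 to 0.0747.

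The 17 antiviral genes that did not pass the test had log2 fold changes from -0.79 to 0.85 and adjusted p from 0.102 to 0.971. They included the dynamin-like GTPase gene Mx1, the RNA sensor genes Ddx58 and Dhx58, the OAS genes Oas1a and Oas2, the ubiquitin-like modifier gene Isg15 and its protease gene Usp18. Isg15 was at 115, 34.9, 107 and 55.9 FPKM in WT and at 89.7, 149, 149 and 127 FPKM in HDAC1cKO-HDAC2HET cells (log2 fold change 0.85, SE 0.39, adjusted p = 0.111), and WT replicates 1 and 3 lay inside the range of the mutant. Ifi27l2a, a small mitochondrial protein gene with the highest WT mean of the set, was at 817, 474, 834 and 579 FPKM in WT and at 519, 756, 747 and 658 FPKM in the mutant. Its groups overlapped almost completely, at 676 ± 178 and 670.0 ± 110.0 FPKM (SD, n = 4; log2 fold change 0.01, SE 0.21, adjusted p = 0.971).

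The number of members called lay between 15 and 20 when any single library was left out. The count of 20 came without WT replicate 2, when Gbp3, Ifit2 and Oas2 were added. Of the 17 calls, 15 were kept in every such fit.

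**Figure D3:**
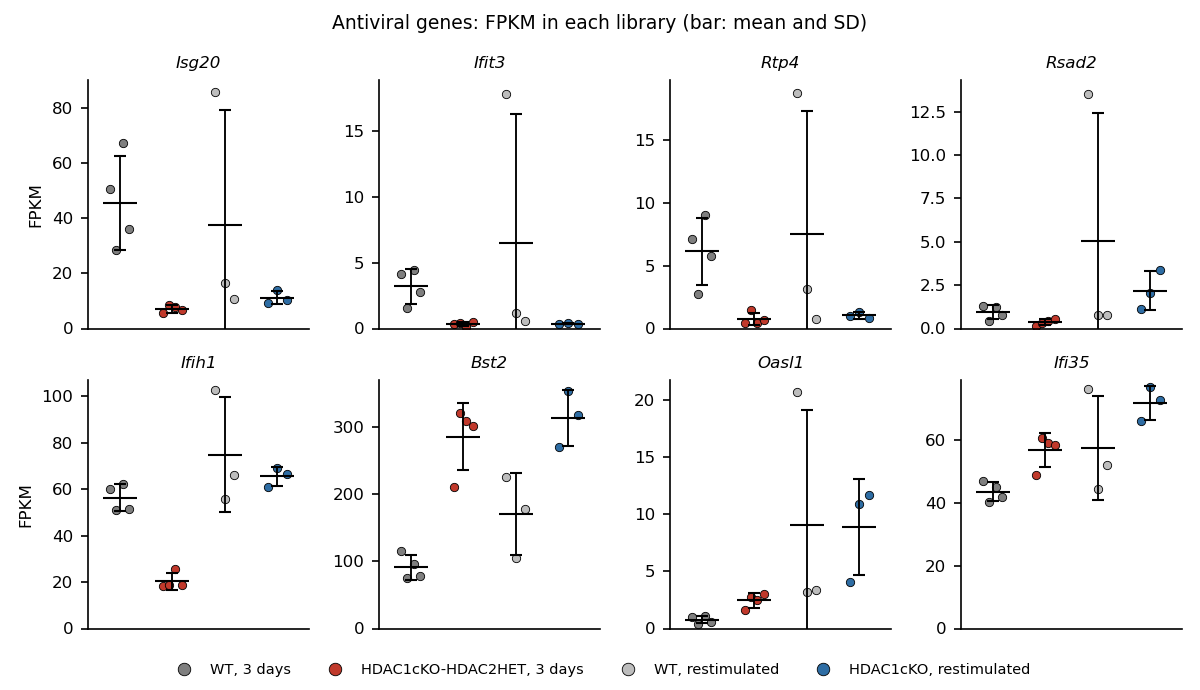
FPKM in every library for 8 antiviral genes (Isg20, Ifit3, Rtp4, Rsad2, Ifih1, Bst2, Oasl1, Ifi35), with a point per library and mean and SD as line and bar, cut at the axis where it would reach below 0. In the first experiment Isg20, Ifit3, Rtp4 and Ifih1 are lower and Bst2, Oasl1 and Ifi35 higher in every mutant library, while the groups of Rsad2 overlap, and in the second WT replicate 1 is the highest WT library in every panel.

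Other genes of the pathway were taken from a fixed list of 18 signalling genes and 31 further interferon-stimulated genes, of which 35 could be tested in the first experiment. The ligand Ifng rose in HDAC1cKO-HDAC2HET cells from 0.931, 1.52, 0.608 and 0.791 FPKM in WT to 67.7, 100.1, 76.7 and 79.4 FPKM (log2 fold change 6.31, SE 0.25, adjusted p = 1.86e-06). Of the 12 tested signalling genes, 4 rose and 6 fell, and 2 were not called (83.3% called, against 51.8% of all genes). The receptor chains divided. Ifngr1 (14.8 to 20.8 FPKM) and Ifnar1 (24 to 30.6 FPKM) rose, and Ifngr2, the signalling chain of the IFN-γ receptor, fell from 7.05 to 3.36 FPKM. The kinase gene Jak2 fell from 138 to 48.4 FPKM (log2 fold change -1.51). Smaller falls were called for Jak1 (-0.13), the transcription factor gene Irf3 (-0.23) and the inhibitor genes Pias1 (-0.46) and Ptpn6 (-0.34). The Jak1 call was lost without any of replicates 2, 3 and 4 of either group. The loci of Jak1 and Irf3 also overlapped Raver2 and Bcl2l12. The feedback inhibitor gene Socs3 rose from 5.61 to 20.9 FPKM. Socs1 had no value of its own.

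Of the 23 further interferon-stimulated genes tested, 7 rose, 5 fell and 11 were not called (52.2% called, against 51.8% of all genes). The increases were in Tgtp2 (7.3 to 13.4 FPKM) and Gm4951 (2.11 to 9.06 FPKM), both GTPase genes of the immunity-related family, and in Ifitm3, which blocks viral entry (11.2 to 31.9 FPKM), Ly6e (154 to 284 FPKM), Cmpk2 (3.77 to 7.47 FPKM), Trim25 and Tor3a. Tgtp2 was read there from a row of its own that also spanned Olfr56, and it lies as well within the joint locus of Ifi47, which did not separate the groups. The decreases were in Gbp2b (0.991 to 0.208 FPKM), Ifit3b, Ifitm1 (1.1 to 0.143 FPKM), Oas1b and Nlrc5. Both lists together gave 22 calls of 35 (62.9%, against 51.8% of all genes), and between 17 and 23 when any single library was left out. Gbp2b fell as Gbp2 did, and Ifit3b as Ifit3 did.

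In the second experiment, HDAC1cKO against WT after restimulation, none of the 36 members that could be tested was called by limma. Of all 13965 genes, 10 were called (0.0716%). At an unadjusted p of at most 0.05, 3 members (8.33%) were found, namely Bst2, Irgm2 and Stat2, against 14.3% of all genes. The log2 fold change was above 0 for 25 members and below 0 for 11. The median was 0.71 for the 6 GTPases, all of them above 0, 0.51 for the 4 Irf and Stat genes and 0.12 for the 26 antiviral genes, against -0.03 over all genes. The groups did not overlap for 5 members (13.9%), against 22.3% of all genes. Of these, Irgm2, Stat2, Bst2 and Samhd1 were higher (9.95% of all genes) and Ifit3 was lower (12.3%) in HDAC1cKO cells.

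The WT libraries of this experiment differed widely among themselves. WT replicate 1 had a median log2 deviation of 1.27 above the group mean over the antiviral genes. Mx1, for example, was at 81.2, 10.7 and 12.9 FPKM in WT and at 24.8, 26.7 and 26.5 FPKM in HDAC1cKO cells, and Isg15 at 365, 74.8 and 93.8 FPKM and at 156, 261 and 220.4 FPKM. Ifnb1, the gene of IFN-β, moved with them and was at 5.93, 0.337 and 0.395 FPKM in WT and at 0.485, 1.19 and 0.927 FPKM in HDAC1cKO cells. Mx1 and Ifnb1 were singled out after their values were seen, and the part of Ifnb1 in the antiviral levels was not tested.

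The Irgm2 and Igtp locus was at 238, 111 and 277 FPKM in WT and at 427, 342 and 335 FPKM in HDAC1cKO cells, without overlap. The mean was 208 ± 86.9 and 368 ± 51.1 FPKM (SD, n = 3; log2 fold change 0.92, SE 0.35, adjusted p = 0.329). Stat2 was at 37.5, 14.5 and 26.7 FPKM in WT and at 44.5, 44.8 and 42.0 FPKM in HDAC1cKO cells (log2 fold change 0.84, SE 0.33, adjusted p = 0.34). Bst2 was at 226, 105 and 179 FPKM in WT and at 269.9, 354 and 318 FPKM in HDAC1cKO cells (log2 fold change 0.95, SE 0.29, adjusted p = 0.254), the smallest adjusted p of the set. For these 3 loci every mutant library lay above every WT library, and the exact permutation p of 0.1 is the smallest that 3 against 3 samples allow. When both experiments were fitted together with a shared spread, Bst2 and Irgm2 passed the test (adjusted p = 0.0419 and 0.0463) and no other member did.

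The other GTPases overlapped between the groups. Irgm1 was at 163, 40.4 and 85.8 FPKM in WT and at 168, 149 and 135 FPKM in HDAC1cKO cells (log2 fold change 0.86, SE 0.48, adjusted p = 0.465). Gbp7 was at 15.8, 5.86 and 10.9 FPKM in WT and at 20.1, 14.8 and 18.5 FPKM (log2 fold change 0.81, SE 0.36, adjusted p = 0.377). Gbp2 was at 205, 118 and 346 FPKM in WT and at 381, 289 and 267 FPKM (log2 fold change 0.61, SE 0.39, adjusted p = 0.525). WT replicate 2 was the lowest library in each of them. Iigp1 was at 68.3, 12.4 and 90.8 FPKM in WT and at 120.0 and 133 FPKM in HDAC1cKO replicates 2 and 3. Replicate 1 joined it with a neighbour, so it was not tested.

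Irf1 was at 71.3, 39.6 and 114 FPKM in WT and at 129.6, 121 and 96.5 FPKM in HDAC1cKO cells (log2 fold change 0.74, SE 0.38, adjusted p = 0.424). Irf2 was at 27.0, 28.2 and 36.9 FPKM in WT and at 35.1, 30.4 and 29.5 FPKM (log2 fold change 0.05, SE 0.14, adjusted p = 0.897). Irf7 was at 90.7, 17.4 and 19.2 FPKM in WT and at 32.7, 43.1 and 37.5 FPKM (log2 fold change 0.27, SE 0.64, adjusted p = 0.877). The groups overlapped for all 3. The joint locus of Irf9 and Rnf31 was at 63.2 ± 7.08 FPKM in WT and 66.3 ± 1.17 FPKM in HDAC1cKO cells (SD, n = 3; exact permutation test, p = 0.5), and that of Ifi47 at 165 ± 58.6 and 198 ± 15.4 FPKM (SD, n = 3; exact permutation test, p = 0.5).

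Of the antiviral genes that fell in the first experiment, Ifit3, Isg20, Rtp4 and Rsad2 had wide errors in the second, and Ifih1 did not. Ifit3 was at 17.8, 1.14 and 0.589 FPKM in WT and at 0.354, 0.424 and 0.341 FPKM in HDAC1cKO cells (log2 fold change -2.40, SE 1.19, adjusted p = 0.415). Isg20 was at 85.9, 16.4 and 10.9 FPKM in WT and at 9.17, 13.8 and 10.5 FPKM (log2 fold change -1.17, SE 0.75, adjusted p = 0.524). Without WT replicate 1, which was far above the other libraries for both genes, the log2 fold changes were -0.97 and -0.28. Rtp4, read here over a shorter locus, was at 18.7, 3.11 and 0.759 FPKM in WT and at 0.964, 1.34 and 0.84 FPKM (log2 fold change -1.72, SE 1.07, adjusted p = 0.508). Rsad2 was at 13.5, 0.786 and 0.795 FPKM in WT and at 1.14, 2.06 and 3.36 FPKM (log2 fold change -0.07, SE 1.13, adjusted p = 0.986), and its log2 fold change was 1.24 without WT replicate 1. Ifih1 was at 103, 55.8 and 66.2 FPKM in WT and at 61.0, 69.0 and 66.5 FPKM (log2 fold change -0.15, SE 0.22, adjusted p = 0.791), and its log2 fold change was 0.11 without WT replicate 1.

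Oasl1 was at 20.7, 3.19 and 3.40 FPKM in WT and at 4.05, 10.9 and 11.7 FPKM in HDAC1cKO cells (log2 fold change 0.39, SE 0.82, adjusted p = 0.855). Ifi35 was at 76.0, 44.4 and 52.0 FPKM and at 65.8, 76.6 and 72.5 FPKM (log2 fold change 0.35, SE 0.20, adjusted p = 0.476), and both genes overlapped between the groups. Samhd1 was at 192, 112 and 183.7 FPKM in WT and at 239.8, 203 and 208 FPKM without overlap (log2 fold change 0.45, SE 0.22, adjusted p = 0.405). Ifi27l2a was at 901, 640.0 and 663 FPKM and at 748, 897 and 739 FPKM (log2 fold change 0.13, SE 0.17, adjusted p = 0.752).

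No member was called when any single library was left out. Without WT replicate 1, 23 of 36 members (63.9%) had an unadjusted p of at most 0.05, against 18.4% of all genes in the same fit. The smallest adjusted p was 0.0514 (Mx1, log2 fold change 1.14), and the median log2 fold change of the members was 0.75. Without WT replicate 2 that median was -0.03, and 3 members (8.33%) had such a p, against 10.4% of all genes. Without WT replicate 3 the median was 0.06, with 7 members (19.4%) against 13.1% of all genes. Without HDAC1cKO replicate 2 it was 0.19, with 0 members against 9.63%. When the Xist state entered the fit, so that the genotypes were compared through WT replicate 2 alone, 13 members (36.1%) had an unadjusted p of at most 0.05, against 11.1% of all genes, the smallest adjusted p was 0.0610, and the median log2 fold change of the members was 1.05.

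Ifng was at 1.06, 0.457 and 4.01 FPKM in WT and at 50.8, 42.5 and 95.3 FPKM in HDAC1cKO cells (log2 fold change 5.42, SE 0.75, adjusted p = 0.114). Its groups were far apart, and the adjusted p was 0.0175 without WT replicate 3. None of the 42 tested pathway genes was called, and 6 (14.3%) had an unadjusted p of at most 0.05, the share found over all genes.

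Whether the fold changes differed between the experiments was tested directly over all 14 samples for the 35 members with values in both. The difference was called for 2 members (5.71%), against 14.6% of 13519 genes. Ifih1 fell in HDAC1cKO-HDAC2HET cells by 1.48 and had a log2 fold change of -0.15 in HDAC1cKO cells, a difference of -1.33 (SE 0.26, adjusted p = 0.0053). This call was kept in 14 of 14 fits that each left out 1 library. Irf2 had log2 fold changes of -0.46 and 0.05, a difference of -0.51 (SE 0.14, adjusted p = 0.027). Its call was kept in 8 of 14 such fits and lost without any of WT replicates 2 and 4 or HDAC1cKO-HDAC2HET replicates 2 and 3 of the first experiment, or WT replicate 2 or HDAC1cKO replicate 1 of the second (adjusted p from 0.0506 to 0.0649).

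For Gbp2, called lower in the first experiment and with a positive log2 fold change in the second, the difference of -1.3 had an adjusted p of 0.055. Without WT replicate 1 of the second experiment, 7 of 35 members differed, against 17.6% of all genes in the same fit, with Dtx3l, Ifit2, Isg20, Rsad2 and Zbp1 added. Without WT replicate 2 of the second experiment Bst2 was added and Irf2 lost, and without its WT replicate 3 Gbp2 was added.

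**Figure D4:**
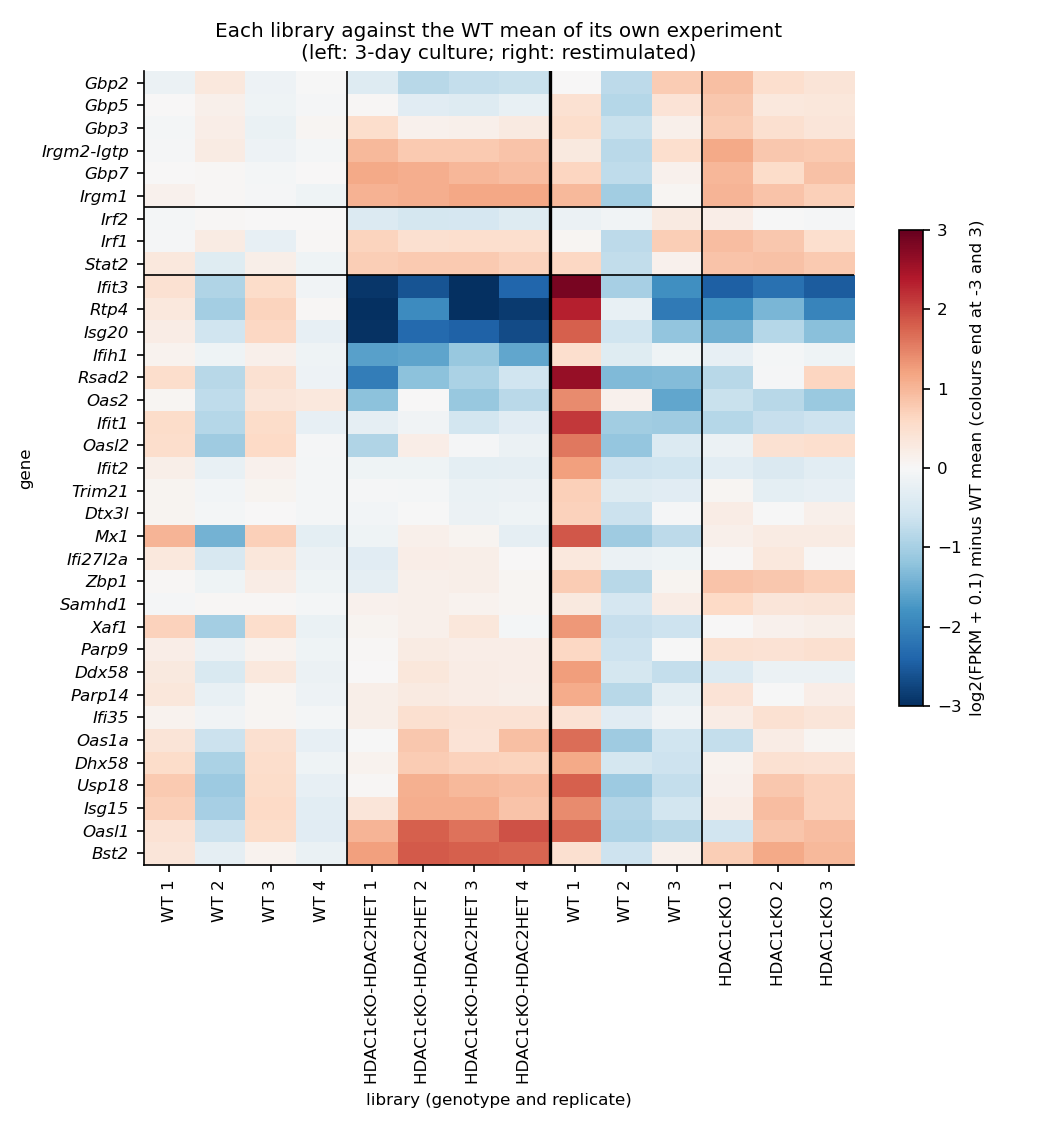
Each column is a library and each row 1 of the 35 members with values in both experiments, coloured by log2(FPKM + 0.1) minus the WT mean of the same experiment, with colours ending at -3 and 3. In the 4 HDAC1cKO-HDAC2HET columns the GTPases lie mostly above and Isg20, Ifit3, Rtp4 and Ifih1 below the WT mean. WT replicate 1 of the second experiment stands out from its group over the antiviral genes.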

How the data were processed

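Total RNA of purified viable CD4+ T cells was made into stranded mRNA libraries and sequenced as 50-bp single reads, as the study describes for its RNA-Seq. By the study's methods, the authors aligned each library to mm10 with TopHat 2.0.13 and ran Cufflinks 2.2.1 on it; the submitters' processing notes instead name FastQC, STAR 2.5.2b, Subread 1.5.1, R 3.4 and edgeR. The deposited values used here were FPKM with confidence bounds, per library. Cufflinks joins neighbouring genes into a locus differently from library to library, so loci were matched by position to a mouse annotation of mm10, and a locus was used for a gene only where it was the same in all libraries of an experiment (shared span of at least 0.8); genes always joined were given as joint loci. Depth was estimated from the bounds, so no counting interval is given, and an exact 0 may be a failed estimate.

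Samples were grouped by their labels. The 2 experiments were analysed separately on the log2(FPKM + 0.1) scale (limma 3.58.1, R 4.3.3, variances moderated along an intensity trend), over genes with a mean of at least 0.1 FPKM, and p-values were adjusted by Benjamini-Hochberg over all of them; the pseudocount understates the change of low genes. Single joint loci were compared with a 2-sided exact permutation test (70 arrangements for 4 against 4, 20 for 3 against 3). The difference between experiments was fitted over all 14 samples with 4 group means. The members and lists were chosen with earlier results of these data known. Values in every sample were given for up to 5 members of each group with the largest and up to 3 with the smallest absolute log2 fold change among those called in the first experiment, for the 3 with the smallest p in the second, for those whose fold changes differed and for the 3 with the highest WT mean; Ifng and Socs1 were named in any case, and a further gene of the pathway list is counted but not reported here. Isg15, Mx1, Ifnb1, Irf7 and the joint loci were given beyond this rule, after their values were seen. The pseudocount, filter, scaling, intensity trend, weights, replicate block, locus rule, sex (read from Xist), joint fitting and each replicate were varied, and the fit without WT replicates 1 and 2 of the second experiment was added after seeing the data. The numbering did not pair the samples. The fit was tested on simulated data. Tables and figures were made with Python 3.11.15, pandas 2.3.3, numpy 2.4.6 and matplotlib 3.10.9.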

Additional observations from a re-analysis of the deposited data

Results flagged for a closer look

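In 4 of 72 groups of 4 libraries looked at, a single library lay far from the others, and chance alone gives about 1 in 20. All 4 were in HDAC1cKO-HDAC2HET cells. Irf1 was at 181 FPKM in replicate 1 and 159 to 161 FPKM in the others. Ifih1 was at 25.5 FPKM in replicate 3 and 18.2 to 18.9 FPKM in the others. Dhx58 was at 9.80 FPKM in replicate 1 and 14.5 to 15.5 FPKM in the others. Usp18 was at 10.7 FPKM in replicate 1 and 19.9 to 21.8 FPKM in the others.

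The log2 fold changes of 2 members differed between the experiments in the test of the difference itself. The difference, first experiment minus second, was -1.33 for Ifih1 and -0.51 for Irf2.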

How the results depend on the processing

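In the first experiment 17 members were called, and between 15 and 20 without any single library. A fold change of at least 2 left 10, and use of loci listed by a gene name in every library left 0 of the 2 testable. With both experiments fitted together 12 were called, Gbp2, Irf1, Rsad2 and Samhd1 being lost and Iigp1 not testable. In the second experiment no member was called, and 2 were with both experiments fitted together; the count over all genes was 10, between 5 and 65 in other fits of that experiment and 1336 with both together. The difference between experiments was called for 2 members, 1 to 7 without any single library and 0 by gene name alone. With the sex covariate, the second experiment entered this difference through WT replicate 2 as its only WT library. The median difference of the members was then -0.83, against -0.08 in the main fit. The 22 other pathway genes called in the first experiment became 10 with a fold change of at least 2, 13 with both experiments together and 4 by gene name alone. No sex covariate could be fitted in the first experiment, where all libraries expressed Xist.

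The replicate numbers did not pair the samples: same-numbered libraries correlated at -0.024 to 0.067 over 7 pairs, and 1 of the 7 correlated best with its own number. With the replicate block, 16 members were called in the first experiment (Rsad2 was lost), 0 in the second, 1 for the difference (Irf2 was lost) and 17 other pathway genes.

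Signs turned only for small or noisy values. Ifi27l2a in the first experiment ranged from -0.15 to 0.13 without any single library. In the second experiment, leaving out WT replicates 1 and 2 gave -0.16 for Gbp2, -0.23 for Irf2, 0.013 for Isg20, 0.39 for Rtp4 and 1.23 for Rsad2. Sample weights gave -0.02 for Irf2, 0.026 for Ifih1 and 0.96 for Rsad2, the sex covariate 0.23 for Ifih1 and 1.25 for Rsad2, and quantile normalization 0.0051 for Rsad2. Without any single library the range was -0.033 to 0.19 for Irf2, -0.33 to 0.11 for Ifih1, -0.067 to 1.26 for Oasl1 and -0.73 to 1.24 for Rsad2. The cause was not tested.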

Other observations

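In 3 of the 4 groups, a library that was high for most GTPases was low for most antiviral genes. This order lies within groups and is part of the spread in the comparisons between genotypes. WT replicate 2 of the first experiment was the highest WT library for 6 of 7 GTPases and the lowest for 25 of 26 antiviral genes. HDAC1cKO-HDAC2HET replicate 1 was the highest of its group for 6 of 7 GTPases and the lowest for 16 of 26 antiviral genes. HDAC1cKO replicate 1 was the highest of its group for 6 of 6 GTPases and the lowest for 15 of 26 antiviral genes. The WT group of the second experiment did not show this order. There, replicate 1 was the highest for 4 of 6 GTPases and 26 of 26 antiviral genes, and replicate 2 the lowest for 6 of 6 GTPases and 19 of 26 antiviral genes. The genes of a list share their libraries, so these counts are a description.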
